A study of Mus musculus with 12 samples.

Results

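The PPAR alpha and fatty acid oxidation genes examined here are 33 genes of lipid use in the liver, chosen by symbol and read in each of 12 mouse liver RNA-seq libraries. All 33 were found among the 23420 gene rows of both deposited count tables, and all 33 passed the filter on low counts in every comparison. They are the receptor gene Ppara, 2 genes of the carnitine shuttle, 5 of acyl-CoA dehydrogenation, 4 of the later mitochondrial steps, 2 for unsaturated chains, 5 of peroxisomal oxidation, the ketone gene Bdh1, 2 Cyp4a genes, 4 acyl-CoA thioesterases, Pdk4 and Vnn1, 2 of fatty acid uptake and binding, and 3 of the lipid droplet.

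PPAR alpha is a nuclear receptor that fatty acids activate. It binds DNA as a pair with RXR, and in fasting hepatocytes it turns on genes for fatty acid uptake, mitochondrial and peroxisomal beta-oxidation, omega-hydroxylation and ketone synthesis. Fatty acids enter mitochondria through the carnitine shuttle and are shortened there in repeated rounds of dehydrogenation, hydration, a further oxidation and cleavage by a thiolase, while peroxisomes shorten the very long chains.

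The libraries were made from liver of C57BL/6 mice and form 4 groups of 3. The p62F/F group carried floxed alleles of Sqstm1, which encodes the autophagy receptor p62, and no Cre. The p62Δhep group carried the same alleles with Alb-Cre, a transgene whose albumin promoter drives Cre recombinase in hepatocytes. The Tsc1Δhep group carried floxed Tsc1, a gene whose product restrains the growth kinase mTORC1, with Cre. The Tsc1/p62Δhep group carried both floxed genes with Alb-Cre. The floxed lines had been backcrossed for at least 7 generations. Age is not given, chow and high-fat diets are both described for the colony but not assigned to libraries, and no label says that the libraries of a group come from separate animals. P-values therefore measure only the spread between these samples. Cre was absent from p62F/F alone, so in the first comparison the effects of Cre and of p62 loss cannot be told apart. The p62F/F and p62Δhep libraries stood in one table and the other 6 in another, so Tsc1 genotype and table cannot be told apart, and levels set across tables are a description.

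Libraries held 15792048 to 33377247 counted reads, of which the 33 members took 0.408% to 2.09%. Levels are given as CPM, the share of a library's counts scaled to a common size, with TMM factors for composition over all 12 libraries. In p62F/F the 3 Sqstm1 levels were 327, 358 and 356 CPM, and in p62Δhep they were 18.1, 12.7 and 20.5 CPM. With Tsc1 deleted it had 1152, 775 and 975 CPM in Tsc1Δhep against 14.0, 17.0 and 19.2 CPM in Tsc1/p62Δhep. Both deletions of p62 were thus visible in every library that carries one. Tsc1 read 26.9 to 41.0 CPM in the 6 libraries with intact Tsc1 and 5.30 to 13.3 CPM in the 6 with the floxed gene and Cre, with Tsc1Δhep library 3 (10.6 CPM) the highest of its group. The share of reads on Rn45s, a ribosomal RNA row, was 1.91% to 3.50% in the first table and 0.0751% to 0.181% in the second, except in Tsc1/p62Δhep library 1 (1.21%). All 12 libraries had the RNA of male liver, with Ddx3y, a Y-linked gene, at 62.8 to 133.6 CPM and Xist at no more than 0.187 CPM. The 15 hepatocyte markers had a count in every library, although Ass1 stood at only 0.228 to 1.92 CPM.

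Per kilobase of transcript the members covered a wide range of levels. Fabp1, the liver fatty acid binding protein, was the most abundant in all 4 groups, with mean levels of 2970 CPM per kilobase in p62F/F, 3084 in p62Δhep, 943.5 in Tsc1Δhep and 7231 in Tsc1/p62Δhep. The least abundant were the thioesterase gene Acot3 in p62F/F (1.08 CPM per kilobase), p62Δhep (0.170) and Tsc1Δhep (0.476), and Pdk4 in Tsc1/p62Δhep (2.29). The members also varied more between libraries of a group than genes in general. The median coefficient of variation was 28.2% over the members against 13.8% over all tested genes in p62F/F, 26.6% against 16.4% in p62Δhep, 46.5% against 32.2% in Tsc1Δhep and 29.0% against 15.5% in Tsc1/p62Δhep.

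**Figure D1:**
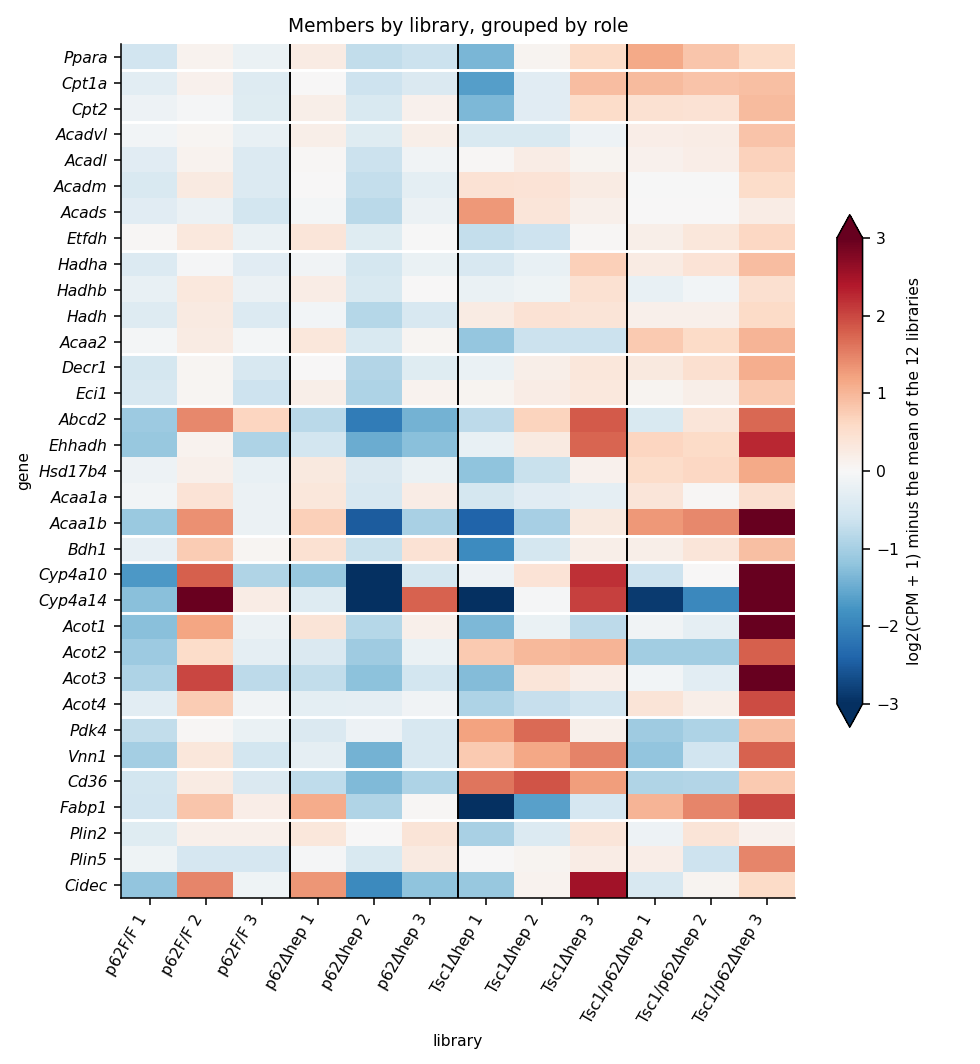
Level of each of the 33 members (rows, in order of role) in each of the 12 libraries (columns), as log2(CPM + 1) minus the gene's mean over the 12 libraries; colours stop at 3 in either direction. Tsc1/p62Δhep library 3 is the highest of the 12 in 25 of 33 members (8.86% of all tested genes). p62Δhep library 2 and Tsc1Δhep library 1 are each the lowest in 15 (8.77% and 26.5% of all tested genes).

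PPAR alpha and RXR pairs are known to bind direct repeats of the element AGGTCA with 1 base between the copies, so promoter windows of RefSeq (build GRCm38.p6, 250 bases before to 50 after a gene's start) were searched for 2 copies in the same direction, on either strand, with at most 2 mismatches over the 12 letters. Windows were found for 26 of the 33 members. A match was present in 4 of these 26 (15.4%) and in 1190 of the 27025 genes with a window (4.4%). A single exact AGGTCA, which can be part of such a repeat, was present in 9 of the 26 (34.6%) and in 18.1% of all genes. The 4 members with the repeat were Fabp1, Acot4, Cd36 and Plin2. The first 3 are shown because they are also among the genes that differed between Tsc1/p62Δhep and Tsc1Δhep. Each line gives the 250 bases before the start, 5′ to 3′ on the gene's strand, with the match in capitals. All 3 matches read as AGGTCA copies on the opposite strand. Fabp1 is on the plus strand at chr6:71199629-71199878, with 1 mismatch and the match at -67 to -55 from the start. Acot4 is on the plus strand at chr12:84038129-84038378, with 2 mismatches and the match at -13 to -1. Cd36 is on the minus strand at chr5:17835897-17836146, with 2 mismatches and the match at -63 to -51.
Fabp1: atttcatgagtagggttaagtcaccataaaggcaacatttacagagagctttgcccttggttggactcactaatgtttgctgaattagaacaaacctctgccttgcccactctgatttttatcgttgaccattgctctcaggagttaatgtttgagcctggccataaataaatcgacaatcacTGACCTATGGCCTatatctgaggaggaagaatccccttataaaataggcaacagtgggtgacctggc
Acot4: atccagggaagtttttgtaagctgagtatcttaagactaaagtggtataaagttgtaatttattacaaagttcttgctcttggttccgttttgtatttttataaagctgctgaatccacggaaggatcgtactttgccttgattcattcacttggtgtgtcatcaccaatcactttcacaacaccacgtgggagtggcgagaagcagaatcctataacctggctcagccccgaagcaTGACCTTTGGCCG
Cd36: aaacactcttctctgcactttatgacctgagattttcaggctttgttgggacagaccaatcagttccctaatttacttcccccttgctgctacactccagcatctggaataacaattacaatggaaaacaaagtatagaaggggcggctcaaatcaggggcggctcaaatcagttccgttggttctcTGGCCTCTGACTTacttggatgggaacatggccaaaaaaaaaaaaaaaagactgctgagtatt
A match describes letters in a window and is not a measured binding site.

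The first comparison asked what loss of p62 did to the members in livers with intact Tsc1. None of the 33 passed the threshold (edgeR's quasi-likelihood test, adjusted p below 0.05), where 2 of 12567 genes did (0.0159%). DESeq2 called 0 of the 32 members it gave an adjusted p, and limma called 0 of 33. An unadjusted p below 0.05 was reached by 2 of 33 members and by 8.12% of all genes. These were Abcd2, a peroxisomal transporter of very long chains, and Cd36, the plasma membrane fatty acid translocase.

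Abcd2 stood at 11.1, 68.4 and 39.1 CPM in p62F/F and at 13.7, 5.05 and 8.63 CPM in p62Δhep. The groups overlapped, since p62F/F library 1 lay below p62Δhep library 1, and the log2 fold change was -2.13 ± 0.63 (SE, 3 against 3 libraries, edgeR adjusted p = 0.448). Cd36 stood at 135, 234 and 146 CPM in p62F/F and at 116, 78.0 and 102 CPM in p62Δhep. Its groups did not overlap, and the log2 fold change was -0.81 ± 0.25 (edgeR adjusted p = 0.477). It was the only member without overlap in this comparison, and 6.45% of all genes were non-overlapping in that direction. No member was higher without overlap, against 6.55% of all genes. Ppara stood at 223, 356 and 286 CPM in p62F/F and at 392, 197 and 212 CPM in p62Δhep, with a log2 fold change of -0.12 ± 0.30 (edgeR adjusted p = 0.942), and its sign turned on leaving out library 2 of p62F/F (0.066) or library 2 (0.057) or 3 (0.025) of p62Δhep.

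Over the 33 members the log2 fold changes ran from -2.64 to 0.33, with a median of -0.11 and 7 above 0, where the median over all genes was 0.004 and 50.7% were above 0. That lean rested on single libraries. Among the 6 libraries of this table, p62F/F library 2 was the highest in 22 of 33 members (66.7%, against 19.8% of all genes), and p62Δhep library 2 was the lowest in 27 (81.8%, against 20.5%). Without p62F/F library 2 the members' median became 0.13, and without p62Δhep library 2 it became 0.09. Dbp, a clock-driven gene chosen here after its values were seen, separated single libraries of both groups, at 11.8, 54.6 and 10.5 CPM in p62F/F and 60.1, 1.25 and 2.75 CPM in p62Δhep. It was high in p62F/F library 2 and p62Δhep library 1 and low in the other 4. Genes known to be higher in female liver had lower values in p62Δhep. Of 10 such genes tested, none passed the threshold and 7 had an unadjusted p below 0.05, all 10 with a log2 fold change below 0 and a median of -2.49. Cd36 and Cyp4a14 belong to that list. Without them its 12 genes summed to 56.7, 540.1 and 224.8 CPM in p62F/F and 16.3, 5.55 and 26.3 CPM in p62Δhep. Most of the p62F/F sums came from Cyp2a4, at 43.5, 383 and 187 CPM. The part of sampling time or of sex-biased expression in the members' values was not tested.

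The second comparison asked the same of livers that lack Tsc1. Of the 33 members 6 passed the threshold, 5 higher and 1 lower in Tsc1/p62Δhep. The thiolase genes Acaa2 and Acaa1b, the peroxisomal enzyme gene Hsd17b4, the thioesterase gene Acot4 and Fabp1 rose by 2.41- to 7.63-fold, and Cd36 fell 3.29-fold. In this comparison 24.2% of 12620 genes passed the threshold, 9.25% higher and 14.9% lower, so the members' share of 6 in 33 was below that of all genes. The members' median log2 fold change was 0.53 with 24 of 33 above 0, where all genes had a median of -0.05 and 47.8% above 0. An unadjusted p below 0.05 was found for 10 of 33 members and 39.7% of all genes. The groups did not overlap in 10 members. In 9 all 3 Tsc1/p62Δhep libraries were higher (22.8% of all genes), and in Cd36 all 3 were lower (23.1%).

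The count of 6 moved with single libraries, as did the count over all genes, which was 3053 with every library. Leaving out Tsc1Δhep library 1, 2 or 3 gave 3, 1 and 15 calls among the members and 3068, 1610 and 5825 over all genes. Leaving out Tsc1/p62Δhep library 1, 2 or 3 gave 2, 3 and 7 among the members, the last with 3 higher and 4 lower. Over all genes the same settings gave 1111, 1182 and 1885. Scaling by library totals instead of TMM gave 4 calls, moved the median of all genes from -0.05 to -0.40 and that of the members to 0.17, and took the share of higher genes among all calls from 38.2% to 14.7%. Acaa2 passed the threshold under all 16 alternative settings and Fabp1 under 15, while Acot4 and Acaa1b did so under 11 and Hsd17b4 and Cd36 under 10.

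**Figure D2:**
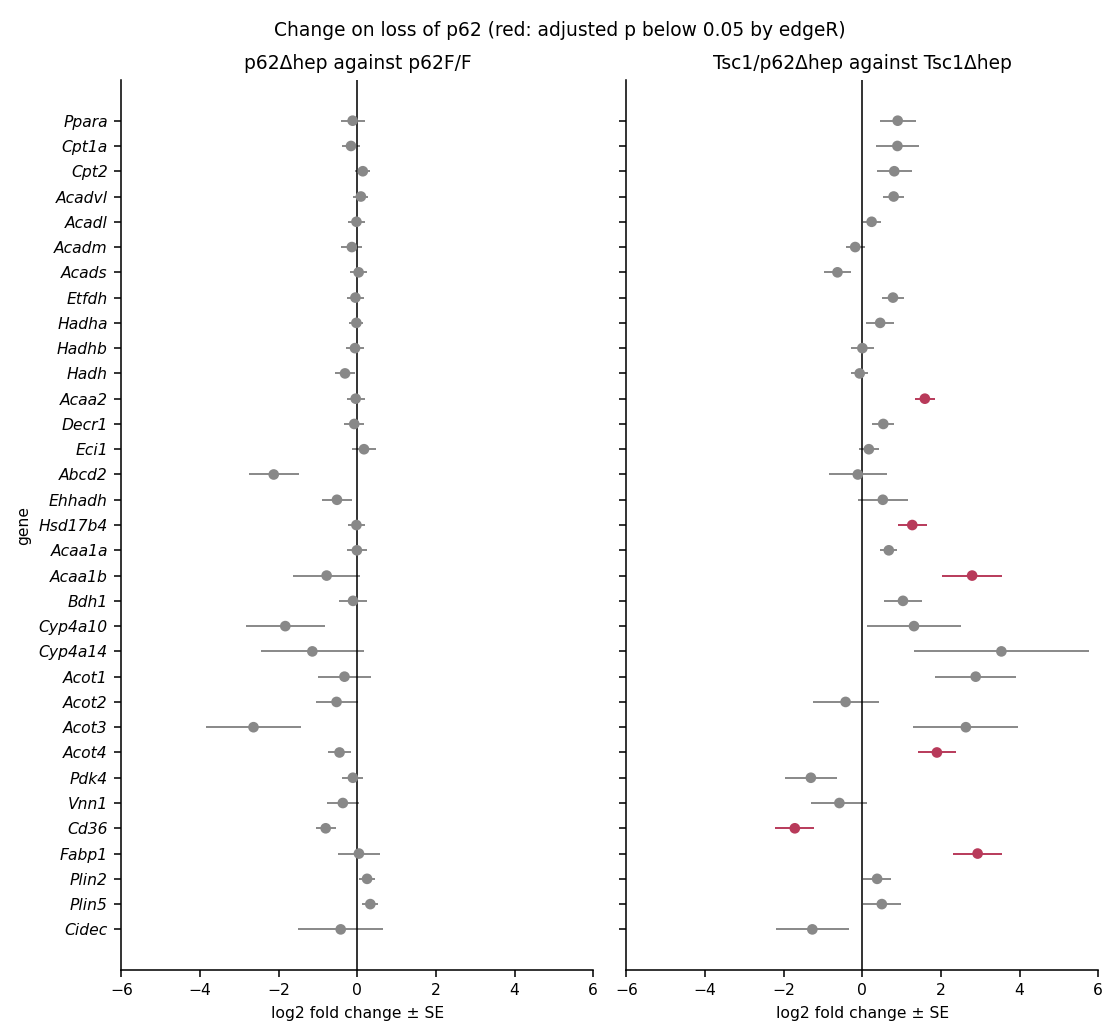
Log2 fold change ± SE of each member (rows, in order of role) on loss of p62 with intact Tsc1 (left) and with Tsc1 deleted (right), from edgeR fits of 3 against 3 libraries within each table; red marks an adjusted p below 0.05. No member is red on the left, and 6 are red on the right, with Cd36 alone on the negative side.

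Other features of these libraries moved with the same contrast. In whole tissue, fewer cells of a type and less RNA per cell cannot be told apart. Of 15 hepatocyte markers 6 were called higher and 0 lower in Tsc1/p62Δhep. The 15 summed to 53400 to 84320 CPM in Tsc1Δhep and 109600 to 141100 CPM in Tsc1/p62Δhep. In that list 12 genes had a log2 fold change above 0, with 9 higher and 1 lower without overlap. The lower one was Ahsg, at 7915, 9633 and 8524 CPM against 5662, 6426 and 5249 CPM. Of 9 cholangiocyte and progenitor markers 4 were lower and 0 higher, with sums of 793.8 to 5075 CPM against 105.3 to 149.5 CPM. Most of these sums came from Spp1, at 4934, 2173 and 704 CPM against 89.2, 74.0 and 116 CPM. Of 10 macrophage and Kupffer cell markers 5 were lower and 0 higher, with sums of 285.1 to 463.2 CPM against 104.4 to 121.0 CPM. Vsig4 and Timd4 of that list were at 0 in Tsc1Δhep library 1 alone. Clec4f and Cd5l stood there at 0.0412 and 0.206 CPM, and Lyz2 and Gpnmb at 177 and 226 CPM. In that list 4 genes had a log2 fold change above 0 without passing the threshold, Clec4f (0.38), Cd5l (0.17), Timd4 (1.39) and Marco (2.68). Of 8 endothelial markers 1 was lower and 0 higher, with sums of 45.1 to 210.1 CPM against 127.2 to 165.1 CPM. Of 10 stellate cell and fibroblast markers 4 were lower and 0 higher, with sums of 55.2 to 325.7 CPM against 219.9 to 299.6 CPM. In that list 5 genes had a log2 fold change above 0, and 3 of them (Lrat, Reln and Dcn) were higher without overlap. In the endothelial list 4 had one above 0, and Stab2 was higher without overlap. Of 3 neutrophil markers tested 2 were lower and 0 higher. The adipocyte list had 1 gene tested, which was lower, the erythroid list 1 higher of 2, and the lymphocyte lists none called of 3. Of 13 genes known to be higher in male liver 7 were higher and 0 lower, and of 6 female-biased genes tested 2 were higher (Cyp2b9 and Cyp2b13) and 2 lower (Cyp2a4 and Cd36). None of 12 clock genes tested was called by edgeR, with 5 at an unadjusted p below 0.05. Without overlap 7 of them were higher and 0 lower, against 22.8% and 23.1% of all genes. Their median log2 fold change was 1.03, with 9 above 0. Dbp stood at 17.0, 54.4 and 78.6 CPM in Tsc1Δhep and 148, 185 and 97.3 CPM in Tsc1/p62Δhep. Of 11 tested genes that respond to feeding or fasting 3 were higher and 2 lower. Their list of 12 summed to 2537 to 4692 CPM in Tsc1Δhep and 5874 to 12020 CPM in Tsc1/p62Δhep. In that list Pck1 stood at 295, 1672 and 885 CPM against 4650, 3032 and 5559 CPM. The part of cell composition, feeding state, sampling time or sex-biased expression in the members' changes was not tested.

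Ppara itself had 127, 348 and 495 CPM in Tsc1Δhep against 724, 591 and 497 CPM in Tsc1/p62Δhep. The groups did not overlap, but Tsc1Δhep library 3 lay just below Tsc1/p62Δhep library 3, and the change did not pass the threshold (log2 fold change 0.90 ± 0.46, edgeR adjusted p = 0.179). Without Tsc1Δhep library 3 it was 1.36 (edgeR adjusted p = 0.0457), the only 1 of 16 alternative settings under which Ppara passed.

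Cpt1a, the rate-setting enzyme of the carnitine shuttle on the outer membrane, had 125, 312 and 748 CPM in Tsc1Δhep against 758, 710 and 739 CPM in Tsc1/p62Δhep. The 3 Tsc1/p62Δhep libraries lay close together and Tsc1Δhep library 3 was among them, and the log2 fold change was 0.89 ± 0.56 (edgeR adjusted p = 0.263). Cpt2, the partner enzyme of the inner membrane, gave 0.81 ± 0.45 (edgeR adjusted p = 0.21), from 44.5, 90.7 and 170 CPM to 158, 157 and 223 CPM. In both genes Tsc1Δhep library 1 was the lowest of the table and library 3 lay inside the Tsc1/p62Δhep range. Without Tsc1Δhep library 3 both passed the threshold, at 1.76 for Cpt1a (edgeR adjusted p = 0.0138) and 1.41 for Cpt2 (edgeR adjusted p = 0.0177). That library was the nearest of its group to Tsc1/p62Δhep, and without it 5825 genes passed, against 3053 with every library. Each of the 2 genes passed under 2 of 16 alternative settings.

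The acyl-CoA dehydrogenases open each round of mitochondrial oxidation, and neither their 4 genes nor Etfdh passed the threshold. Acadvl, for very long chains, stood at 268, 270 and 331 CPM in Tsc1Δhep and 422, 432 and 667 CPM in Tsc1/p62Δhep (log2 fold change 0.80 ± 0.26, edgeR adjusted p = 0.0619). Etfdh, which passes the electrons on to ubiquinone, stood at 156, 166 and 264 CPM and at 289, 327 and 396 CPM (0.78 ± 0.28, edgeR adjusted p = 0.0763). The groups did not overlap for either gene, and both passed the threshold with DESeq2 (adjusted p = 0.0161 and 0.0296). Acads, for short chains, had a value on the other side of 0 (-0.63 ± 0.34, edgeR adjusted p = 0.199), with Tsc1Δhep library 1 at 474 CPM and the other 5 libraries at 191 to 245 CPM. Acadl and Acadm, for long and medium chains, did not pass the threshold either, with mean levels in Tsc1Δhep and Tsc1/p62Δhep of 232 and 275 CPM for Acadl and 434 and 386 CPM for Acadm.

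Of the later mitochondrial steps, Acaa2 was the gene that changed. This thiolase makes the cut that can end a round of mitochondrial oxidation. It had 238, 340 and 341 CPM in Tsc1Δhep against 911, 794 and 1079 CPM in Tsc1/p62Δhep. The lowest Tsc1/p62Δhep library lay well above the highest Tsc1Δhep library. The log2 fold change was 1.59 ± 0.25, or 3.01-fold (edgeR adjusted p = 0.00566). Hadha and Hadhb, the subunits of the trifunctional protein, and Hadh, a dehydrogenase of shorter chains, did not pass the threshold. Their mean levels in Tsc1Δhep and Tsc1/p62Δhep were 365 and 503 CPM for Hadha, 138 and 139 CPM for Hadhb, and 423 and 406 CPM for Hadh. Of the transcript of Hadhb, 57.2% of 75-base windows also occur in the annotated gene Gm13910, so its count is uncertain. Decr1 and Eci1, which handle double bonds, did not pass the threshold either, with means of 170 and 247 CPM for Decr1 and 113 and 128 CPM for Eci1.

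In the peroxisomal set 2 of 5 genes rose. Hsd17b4, a bifunctional enzyme of chain shortening, had 188, 274 and 480 CPM in Tsc1Δhep against 643, 675 and 967 CPM in Tsc1/p62Δhep (log2 fold change 1.27 ± 0.37, 2.41-fold, edgeR adjusted p = 0.0446). The groups did not overlap, and the call was lost on leaving out any library but Tsc1Δhep 3 (edgeR adjusted p = 0.0626 to 0.155). Acaa1b, a peroxisomal thiolase, stood at 62.4, 167 and 409 CPM and at 822, 900 and 2718 CPM (2.79 ± 0.76, 6.93-fold, edgeR adjusted p = 0.034). Both groups were wide, with Tsc1/p62Δhep library 3 at 3.16 times the mean of libraries 1 and 2. The call on Acaa1b was lost without Tsc1Δhep library 2 (edgeR adjusted p = 0.129) and without Tsc1/p62Δhep library 1, 2 or 3 (0.0655, 0.0652 and 0.1). Its log2 fold change was 2.03 without Tsc1/p62Δhep library 3 and 3.70 without Tsc1Δhep library 3.

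Acaa1a, its near-identical neighbour in sequence, stood at 110, 126 and 133 CPM and at 205, 163 and 225 CPM (0.67 ± 0.21, edgeR adjusted p = 0.0566). Its groups did not overlap, and it passed with DESeq2 (adjusted p = 0.0144). The 2 thiolases share 27.3% of the 75-base windows of Acaa1a and 28.5% of those of Acaa1b, so reads could have been split between them. Ehhadh, the other bifunctional enzyme, stood at 201, 280 and 782 CPM in Tsc1Δhep and 364, 346 and 1114 CPM in Tsc1/p62Δhep (0.52 ± 0.63, edgeR adjusted p = 0.565), with library 3 the highest in both groups. Abcd2 had mean levels of 48.3 ± 39.4 and 44.8 ± 35.0 CPM (SD, n = 3). Bdh1, which interconverts the ketone bodies, stood at 51.0, 133 and 216 CPM and at 215, 249 and 359 CPM (1.03 ± 0.48, edgeR adjusted p = 0.151), and its groups overlapped by Tsc1Δhep library 3.

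**Figure D3:**
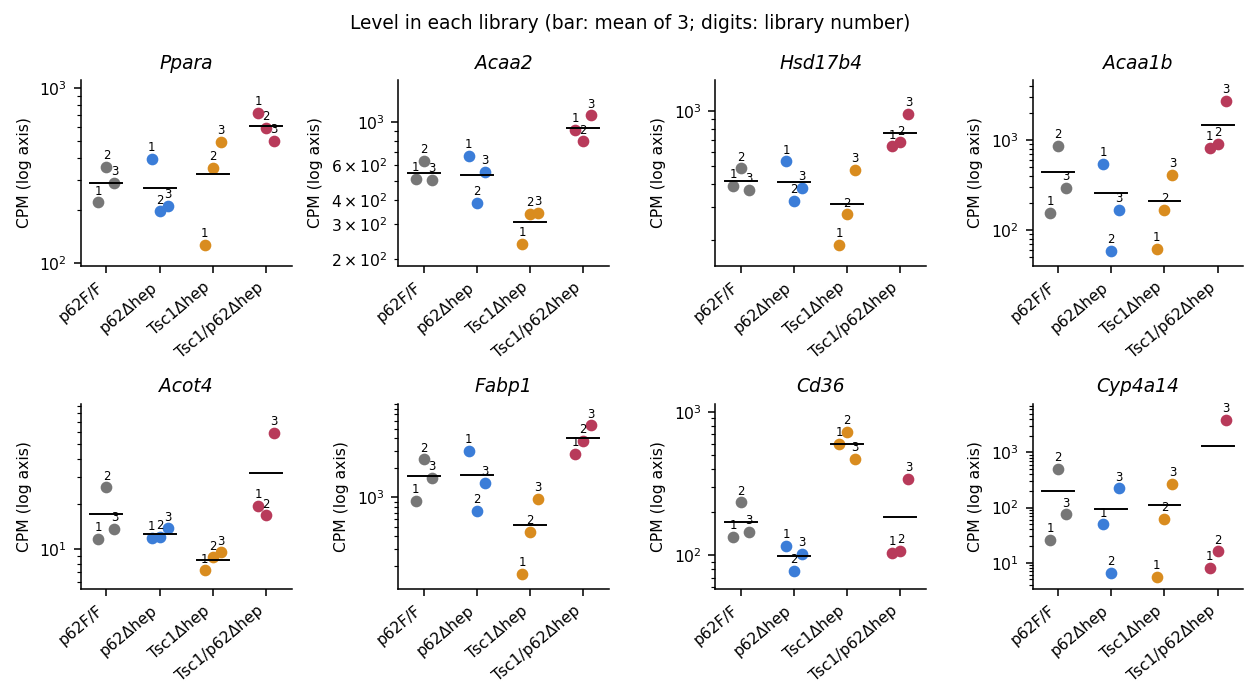
CPM (log axis) in each library of the 4 groups for Ppara, the 6 members that passed the threshold between Tsc1/p62Δhep and Tsc1Δhep, and Cyp4a14; bars are means of 3 and digits are library numbers. Acaa2 runs from 794 to 1079 CPM in Tsc1/p62Δhep and up to 341 CPM in Tsc1Δhep, whereas Cyp4a14 in Tsc1/p62Δhep runs from 7.96 to 3926 CPM.

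The Cyp4a genes, which omega-hydroxylate fatty acids and are classical PPAR alpha targets, were set by single libraries. Cyp4a14 had 5.53, 62.4 and 270 CPM in Tsc1Δhep against 7.96, 16.1 and 3926 CPM in Tsc1/p62Δhep. Cyp4a10 stood at 61.2, 90.2 and 314 CPM and at 43.8, 68.2 and 1054 CPM. In both genes library 3 was the highest of each group. The other Tsc1/p62Δhep libraries lay within the range of Tsc1Δhep, except library 1 for Cyp4a10, which lay below it. Log2 fold changes of 3.54 ± 2.22 for Cyp4a14 and 1.31 ± 1.19 for Cyp4a10 did not pass the threshold (edgeR adjusted p = 0.266 and 0.435). Without Tsc1/p62Δhep library 3 they turned to -3.22 and -1.46 (edgeR adjusted p = 0.174 and 0.211). Cyp4a10 shares 19.1% of its windows with other genes, mostly Cyp4a32, and Cyp4a14 shares none.

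Acyl-CoA thioesterases release free fatty acids from CoA. Acot4, a peroxisomal one, rose, from 7.22, 8.81 and 9.50 CPM in Tsc1Δhep to 19.5, 16.7 and 59.6 CPM in Tsc1/p62Δhep (log2 fold change 1.90 ± 0.49, 3.72-fold, edgeR adjusted p = 0.0293). The groups did not overlap, with Tsc1/p62Δhep library 3 apart from the other two. The call was lost without Tsc1Δhep library 1 or 2 (edgeR adjusted p = 0.0603 and 0.0997) and without Tsc1/p62Δhep library 1 (0.0506). Without Tsc1/p62Δhep library 3 the log2 fold change was 1.10 (edgeR adjusted p = 0.0409). Of the annotated Acot4 transcript, 10.7% of windows also occur in another gene.

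Acot1, of the cytosol, stood at 2.23, 6.15 and 3.79 CPM and at 6.72, 5.83 and 78.3 CPM (2.88 ± 1.02, edgeR adjusted p = 0.0769), with Tsc1/p62Δhep library 3 far above the other 5 libraries. Acot2, of mitochondria, stood at 9.36, 10.9 and 11.3 CPM and at 1.92, 1.92 and 19.8 CPM (-0.43 ± 0.84, edgeR adjusted p = 0.73). Acot3 stood at 0.124, 2.58 and 2.19 CPM and at 1.65, 1.22 and 27.9 CPM (2.63 ± 1.34, edgeR adjusted p = 0.179). Tsc1/p62Δhep library 3 was the highest of the table in all 3 genes. Without it Acot2 fell below Tsc1Δhep by 2.44 on the log2 scale (edgeR adjusted p = 0.00931), and Acot3 turned to -0.18 (edgeR adjusted p = 0.916). Acot2 passed the threshold under that 1 of 16 alternative settings only. Acot1 and Acot2 share 26.4% and 21.2% of their windows with other genes, largely each other, so their counts are not independent.

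Pdk4, the kinase that restrains pyruvate dehydrogenase, had 20.5, 28.9 and 9.32 CPM in Tsc1Δhep against 3.43, 3.91 and 16.5 CPM in Tsc1/p62Δhep (-1.31 ± 0.67, edgeR adjusted p = 0.182). Vnn1, a pantetheinase, stood at 147, 192 and 241 CPM and at 36.9, 57.5 and 296 CPM (-0.58 ± 0.71, edgeR adjusted p = 0.567). In both, Tsc1/p62Δhep libraries 1 and 2 lay below every Tsc1Δhep library and library 3 did not. With library 3 left out both passed the threshold as lower, at -2.40 for Pdk4 and -2.03 for Vnn1 (edgeR adjusted p = 0.0331 and 0.0197). Neither passed under any other of the 16 alternative settings.

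The genes of fatty acid entry went opposite ways. Fabp1 had 165, 442 and 958 CPM in Tsc1Δhep against 2797, 3789 and 5411 CPM in Tsc1/p62Δhep. The lowest Tsc1/p62Δhep library was far above the highest Tsc1Δhep library, and the log2 fold change was 2.93 ± 0.62, or 7.63-fold (edgeR adjusted p = 0.0146). Of the settings tried, the call was lost only without Tsc1Δhep library 2 (edgeR adjusted p = 0.0706), and without Tsc1Δhep library 3 the log2 fold change was 3.73. Cd36 had 596, 727 and 471 CPM in Tsc1Δhep against 104, 107 and 339 CPM in Tsc1/p62Δhep. The groups did not overlap, although Tsc1/p62Δhep library 3 was 3.21 times the mean of libraries 1 and 2, and the log2 fold change was -1.72 ± 0.49, a fall of 3.29-fold (edgeR adjusted p = 0.0407). This call was lost without Tsc1Δhep library 1 or 2 (edgeR adjusted p = 0.0594 and 0.122) and without Tsc1/p62Δhep library 1 or 2 (0.14 for each). Without Tsc1/p62Δhep library 3 the log2 fold change was -2.49. Cd36 is also made by macrophages and endothelial cells, whose marker values are given above; their part in its fall was not tested.

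None of the lipid droplet genes passed the threshold. Mean levels in Tsc1Δhep and Tsc1/p62Δhep were 293 ± 138 and 382 ± 71.1 CPM (SD, n = 3) for Plin2, a general droplet coat protein. They were 38.8 ± 3.0 and 55.2 ± 40.8 CPM for Plin5, which ties droplets to mitochondria. Cidec, which enlarges droplets, had 16.1 ± 20.5 and 6.69 ± 2.76 CPM, with Tsc1Δhep library 3 alone at 39.6 CPM. The 11 members of this comparison without a fold change here (Acadl, Acadm, Hadha, Hadhb, Hadh, Decr1, Eci1, Abcd2, Plin2, Plin5 and Cidec) ran from -1.27 to 0.53 on the log2 scale, with edgeR adjusted p of 0.186 or more.

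Tsc1/p62Δhep library 3 stood apart in these genes. It was the highest of all 12 libraries in 25 of 33 members, against 8.86% of all tested genes. Over the mean of libraries 1 and 2, it was more than 2-fold higher in 13 of 33 members, against 5.67% of all genes. The ratio was 326.7 for Cyp4a14, 19.5 for Acot3, 18.8 for Cyp4a10, 12.5 for Acot1 and 10.3 for Acot2. Ppara was lower in it, at a ratio of 0.755. The female-biased genes without Cyp4a14 and Cd36 summed to 59.6, 40.9 and 417.7 CPM in Tsc1/p62Δhep libraries 1, 2 and 3, of which Cyp2b9 and Cyp2b13 made up 247 and 153 CPM in library 3. Cyp2c40, Cyp2c69 and Cyp3a44 of the same list were lowest in library 3, each below 1 CPM in all 3 libraries. Its Dbp level, at 97.3 CPM, was the lowest of its group. Whether feeding state, sampling time or another difference of that sample bears on its values was not tested.

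**Figure D4:**
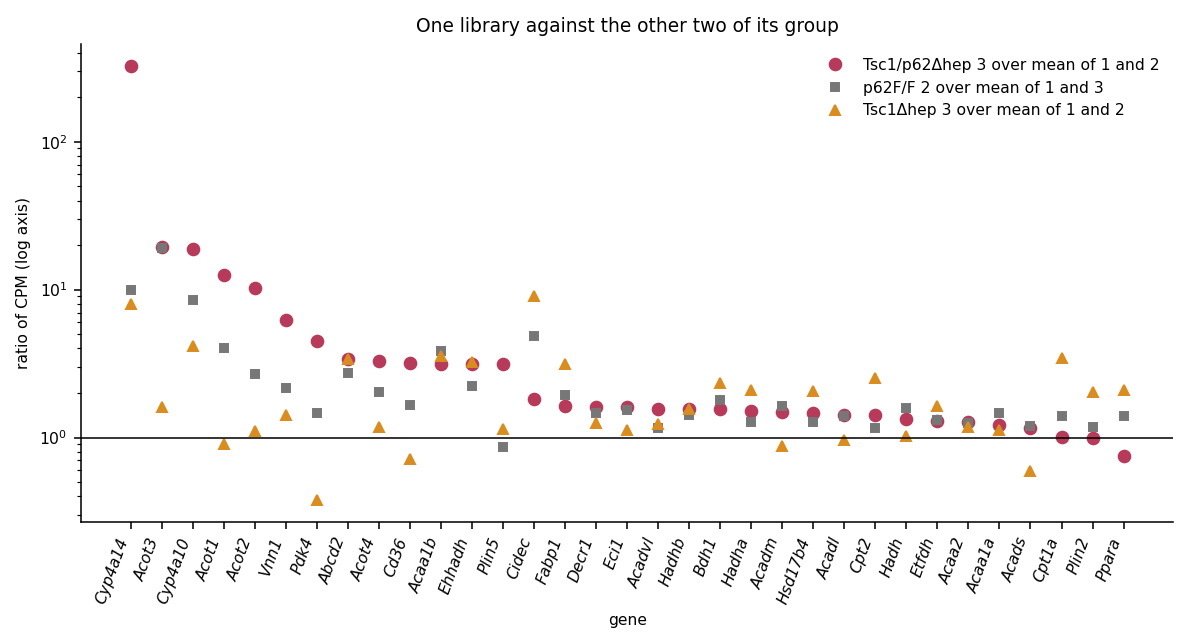
Ratio of CPM (log axis) of Tsc1/p62Δhep library 3 to the mean of libraries 1 and 2 (circles), of p62F/F library 2 to the mean of libraries 1 and 3 (squares), and of Tsc1Δhep library 3 to the mean of libraries 1 and 2 (triangles), for each member. Circles reach 326.7 in Cyp4a14, and 13 of 33 lie above 2, as do 11 of 33 squares and 14 of 33 triangles.

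Libraries of other groups also stood high in many members. In p62F/F, library 2 was the highest of its group in 31 of 33 members (35% of all genes). It was more than 2-fold above the mean of libraries 1 and 3 in 11 (33.3%, against 4.01% of all genes). Cyp4a14 stood there at 26.3, 505 and 75.1 CPM, Cyp4a10 at 19.8, 237 and 35.9 CPM and Acot3 at 0.451, 10.1 and 0.606 CPM. Within Tsc1Δhep, library 1 was the lowest in 29 members (42.6% of all genes) and library 3 the highest in 25 (39.7% of all genes). Against the mean of its libraries 1 and 2, Tsc1Δhep library 3 was more than 2-fold higher in 14 of 33 members (42.4%, against 11.6% of all genes). Tsc1Δhep library 1 also stood apart in marker lists, by the median of log2(CPM + 1) minus each gene's mean over the 12 libraries. It was the lowest of the 12 for hepatocyte (-0.71), stellate (-1.36), endothelial (-1.33), macrophage (-1.37) and B cell (-0.40) markers. For cholangiocyte and progenitor markers it was the highest (2.07). It was at neither end for T and NK cell, neutrophil, adipocyte and erythroid markers. The bearing on the members' values was not tested. The member with the highest coefficient of variation was Acot3 in p62F/F (148.5%), Cidec in p62Δhep (134.9%) and Tsc1Δhep (126.7%), and Cyp4a14 in Tsc1/p62Δhep (171.6%).

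Across the 4 groups, the mean level was highest in Tsc1/p62Δhep for 23 of 33 members, where 26.3% of all tested genes were highest there. It was highest in Tsc1Δhep for 9, in p62Δhep for 1 (Plin2) and in p62F/F for 0, against 36.8%, 23.8% and 13.2% of all genes. The lowest mean was in p62Δhep for 18, in Tsc1Δhep for 12 and in p62F/F for 3, against 21.3%, 34.3% and 15% of all genes. Fabp1, Acaa2, Hsd17b4, Acaa1b and Acot4 shared 1 order at the ends, with Tsc1Δhep lowest and Tsc1/p62Δhep highest. Their p62F/F means stood between, with libraries at 917, 2433 and 1576 CPM for Fabp1 and at 509, 633 and 507 CPM for Acaa2. The p62Δhep libraries overlapped with those of p62F/F in all 5 genes. These 5 are the members called higher in the second comparison, so Tsc1/p62Δhep standing above Tsc1Δhep was fixed by that choice. Cpt2, Acadvl, Etfdh, Acaa1a, Bdh1 and Acot1, which were not called there, had the same lowest and highest groups. For Ppara the means were 288 ± 66.9 CPM in p62F/F, 267 ± 108 in p62Δhep, 323 ± 185 in Tsc1Δhep and 604 ± 114 in Tsc1/p62Δhep (SD, n = 3), and the first 3 overlapped. Cd36 was highest in Tsc1Δhep (598 ± 128 CPM) and lowest in p62Δhep (98.8 ± 19.3 CPM).

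Whether the effect of p62 loss differed between the 2 Tsc1 backgrounds was tested as an interaction over all 12 libraries. It was larger with Tsc1 deleted for 3 of 33 members and smaller for 0, where 16.1% of 13231 genes passed, 6.76% in the higher and 9.32% in the lower direction. An unadjusted p below 0.05 was found for 8 of 33 members (33.7% of all genes), and 26 of 33 differences were above 0 (46.7% of all genes). The difference between the log2 fold changes was 1.62 ± 0.35 for Acaa2 (edgeR adjusted p = 0.0107), 2.34 ± 0.62 for Acot4 (0.0255) and 2.88 ± 0.90 for Fabp1 (0.0482). Of 21 alternative settings Acaa2 passed under 20, Acot4 under 14 and Fabp1 under 8. Hsd17b4 (1.28 ± 0.46, edgeR adjusted p = 0.0774), Acaa1b (3.56 ± 1.27, 0.0763) and Ppara (1.01 ± 0.60, 0.254) did not pass. A factor that scales a gene in a whole table cancels in this contrast, while Cre, absent only from p62F/F, does not. With library totals instead of TMM the count was 2, the median over all genes went from -0.07 to -0.39, and the share of higher genes among all calls went from 42.0% to 14.9%. The count was 1 without p62F/F library 2, p62Δhep library 2 or 3, or Tsc1Δhep library 2. Over all genes these settings gave 1241, 1274, 1169 and 1529 calls, against 2127 with every library. The members' count was 9 without Tsc1Δhep library 3 (4952 over all genes). It was 4 (2 higher and 2 lower) without Tsc1/p62Δhep library 3 (1906 over all genes).

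Another 117 genes of the same pathways, listed by function and all in the tables, were read beside the members. Between p62Δhep and p62F/F none of 112 tested was called by edgeR, with 4 at an unadjusted p below 0.05 (8.12% of all genes). Between Tsc1/p62Δhep and Tsc1Δhep 22 of 110 were higher and 11 lower, with a median log2 fold change of 0.54, where 9.25% of all genes were higher and 14.9% lower, with a median of -0.05. Higher genes were 7 of 22 in the peroxisomal list (1 lower), 6 of 22 in fatty acid activation and transport (3 lower), 3 of 17 receptors and coactivators (0 lower) and 3 of 9 other Cyp4 genes (0 lower). The ketone list had 0 higher and 3 lower of 7, and the lipid droplet and lipolysis list 2 higher and 3 lower of 16. The other pyruvate dehydrogenase kinases had 0 called of 4. The other mitochondrial list had 1 higher and 1 lower of 13, and the lower one was the hormone gene Fgf21, which that list also held. In the interaction 17 of 113 were higher and 6 lower, against 6.76% and 9.32% of all genes.

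The 3 higher and 3 lower genes with the smallest p are given next. Nudt7, a peroxisomal CoA hydrolase, had 71.3, 105 and 124 CPM in Tsc1Δhep against 823, 1055 and 560 CPM in Tsc1/p62Δhep (log2 fold change 3.01 ± 0.34, edgeR adjusted p = 0.00178). It is also among the male-biased genes listed above. Pecr, a peroxisomal enoyl-CoA reductase, rose from 60.7, 77.4 and 58.1 CPM to 242, 218 and 239 CPM (1.83 ± 0.21, edgeR adjusted p = 0.00196). Slc27a5, which activates bile acids and very long chains, rose from 268, 406 and 379 CPM to 1454, 1324 and 1447 CPM (2.00 ± 0.25, edgeR adjusted p = 0.0025). In all 3 the groups were far apart and library 3 of Tsc1/p62Δhep was not above both of its companions.

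Fgf21, a fasting hormone and PPAR alpha target, fell. It had 34.3, 47.6 and 44.3 CPM in Tsc1Δhep against 0.274, 0.833 and 2.42 CPM in Tsc1/p62Δhep (-5.16 ± 0.64, edgeR adjusted p = 0.00249), against 2.09, 2.92 and 4.46 CPM in p62F/F. Slc16a6, a carrier that exports ketone bodies, fell from 14.5, 13.0 and 17.5 CPM to 1.85, 1.73 and 1.97 CPM (-3.02 ± 0.27, edgeR adjusted p = 0.000872). Acsl4, a ligase that favours arachidonic acid, fell from 305, 268 and 287 CPM to 114, 94.0 and 82.3 CPM (-1.58 ± 0.22, edgeR adjusted p = 0.00385). These falls stood beside the rises of Fabp1 and Acaa2 in the same 3 libraries. In the interaction the smallest p among higher genes belonged to Slc27a5 (2.11 ± 0.30, edgeR adjusted p = 0.00164), Pecr (1.94 ± 0.29, 0.00217) and Cyp4f13, a fatty acid hydroxylase (1.33 ± 0.26, 0.00789). Among lower genes it belonged to Slc16a6 (-3.26 ± 0.42, edgeR adjusted p = 0.0011), Oxct1, the enzyme of ketone use (-3.14 ± 0.56, 0.00493), and Fgf21 (-5.00 ± 0.94, 0.00624).

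Rxra, the partner of PPAR alpha, had 134, 211 and 413 CPM in Tsc1Δhep against 573, 630 and 655 CPM in Tsc1/p62Δhep, without overlap (1.29 ± 0.40, edgeR adjusted p = 0.0518, and DESeq2 adjusted p = 0.00767). In Rxra, as in Ppara and Cpt1a, Tsc1Δhep library 3 was the nearest of its group to Tsc1/p62Δhep. Ppargc1a, a coactivator of the pathway, did not pass the threshold (0.29 ± 0.26, edgeR adjusted p = 0.421), from 24.2, 22.0 and 18.4 CPM to 33.2, 19.9 and 26.5 CPM, and scaling by library totals turned it to -0.049.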

How the data were processed

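Liver polyA RNA libraries were made with a directional kit and sequenced as single or paired ends, per the labels; which library had which is not given. The authors deposited raw counts per gene in 2 tables of 6 libraries and 23420 rows; no source used here names the aligner, the counting program, its strand setting or the annotation, and the only build in the submitters' processing notes, hg19, is human. Reads of overlapping or near-identical genes therefore may be split; exact 75-base windows of GENCODE M21 transcripts were compared to mark them. Counts were tested with edgeR 4.0.16 (R 4.3.3; filterByExpr, TMM, quasi-likelihood test) within each table, and over all 12 libraries for the interaction, with Benjamini-Hochberg adjustment over all genes tested and a threshold of 0.05. Fold changes come from these fits; printed CPM are on 1 TMM scale over the 12 libraries. The script was tested on simulated counts.

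DESeq2 1.42.0, limma 3.58.1 on log2(CPM + 1) without and with length and GC trends removed, library totals, median-ratio factors, no filter, the replicate number as a block, a joint fit and leaving out libraries were alternatives. Total counts per library, 15792048 to 33377247, set the precision of low genes. No pair of libraries agreed within sampling noise (chi-square per gene of 36.2 or more). The members and gene lists were chosen with earlier results of these data known. Every member is accounted for; values in each library were due for Ppara and for called members, and of the other pathway genes the 3 with the smallest p per direction and comparison, with Rxra, Ppargc1a and Fgf21, are named; other genes due by that rule are not reported here. Counts for 7 listed marker genes (Tf, Adgre1, Trac, Jchain, Ly6g, Hbb-bs and Ciart) were not used here, having no row under these symbols.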

Additional observations from a re-analysis of the deposited data

Results flagged for a closer look

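The effect of p62 loss differed between livers with and without Tsc1 by the interaction test in 9 of the named genes, which did not hold alike over 21 alternative settings. Over all genes 16.1% passed. The difference of the log2 fold changes was 1.62 for Acaa2, 2.34 for Acot4 and 2.88 for Fabp1 among the members. Among the other pathway genes it was 2.11 for Slc27a5, 1.94 for Pecr and 1.33 for Cyp4f13, and -3.26 for Slc16a6, -3.14 for Oxct1 and -5.00 for Fgf21. These pathway genes were named for the smallest p per direction in this same test, so their passing was fixed by that choice. Slc27a5, Pecr, Slc16a6, Oxct1 and Fgf21 passed the threshold under all 21, Acaa2 and Cyp4f13 under 20, Acot4 under 14 and Fabp1 under 8. In each gene the change between Tsc1/p62Δhep and Tsc1Δhep was the larger of the pair. Oxct1 had 48.6, 46.0 and 13.3 CPM in Tsc1Δhep against 2.86 to 6.06 CPM in the other 9 libraries.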

How the results depend on the processing

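In the comparison of p62Δhep with p62F/F the count of members called stayed at 0 under every alternative. Between Tsc1/p62Δhep and Tsc1Δhep it was 6, became 10 (9 higher, 1 lower) with all 12 libraries in 1 fit, and ran from 1 to 15 when single libraries were left out. The interaction count was 3, became 10 with both Tsc1Δhep library 3 and Tsc1/p62Δhep library 1 left out, and ran from 1 to 9 when single libraries were left out. With the replicate number as a block the interaction count was 0 and the second comparison had 5 calls. No label says that replicate numbers pair these samples, and over all genes the deviations of same-numbered samples correlated at -0.51 to 0.04. In the second table all pairs, same-numbered or not, lay between -0.12 and 0.11, so the check cannot tell pairing there. Over the members alone the same-numbered correlations ran from -0.77 to 0.56. Signs turned for Ppargc1a in the second comparison with library totals (-0.049), and for Acot2 (0.11) and Vnn1 (0.063) without both libraries named above. They also turned when single libraries were left out, where Ppara ran from -0.50 to 0.066 in the first comparison. In the second, Acot2 ran from -2.44 to 0.046, Ehhadh from -0.24 to 1.34, Cyp4a10 from -1.46 to 2.36, Cyp4a14 from -3.22 to 5.27 and Acot3 from -0.18 to 3.17, the lowest value in each of these 5 without Tsc1/p62Δhep library 3. The cause was not tested. Of 492 values of 31 named genes in the second comparison 423 kept their sign and side of the threshold. Of the rest 37 newly passed it, 23 lost it and 9 turned sign. The 11 members given without a fold change are not among the 31. Of these members Hadhb turned sign under 6 of 16 alternative settings, Hadh under 5 and Abcd2 under 4. Eci1 and Cidec did so under 2 each, and Acadl, Plin2 and Plin5 under 1 each. In the interaction 238 of 273 values of 13 named genes kept both. Over all genes, DESeq2 called 171 against 2 by edgeR in the first comparison, where leaving out single libraries gave 1 to 49. The second had 3053 calls, 1847 with the block, 5201 in the joint fit and 1111 to 5825 without single libraries, and the interaction 2127, 911 with the block, 3904 without both libraries and 1169 to 4952 without single ones. The group with the highest mean was Tsc1/p62Δhep for 20 of 33 members with library totals and 23 with median-ratio factors. Members below about 10 CPM, among them Acot1, Acot2 and Acot3, rest on few reads.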
